A study of Mus musculus with 4 samples.

Results

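The genes described here serve the clearance of apoptotic cells and were chosen by symbol. They comprise the TAM receptor tyrosine kinases Mertk, Axl and Tyro3, the bridging molecules Gas6, Pros1 and Mfge8, the phosphatidylserine receptor Timd4, and the integrin chains Itgav, Itgb3 and Itgb5. All 10 were found, each in 1 of the 22700 rows of the deposited tables, and 9 reached the level minimum of 20 normalised reads in at least 1 library. Total RNA depleted of ribosomal RNA was sequenced as read pairs from cultured marrow cells of male mice aged 12 weeks, labelled as bone marrow macrophages. Control mice were db/+ littermates (BKS.Cg-m+/+leprdb+/J, phenotype given as Control), and the diabetic mice were db/db (BKS.Cg-m+/+leprdb/J, phenotype given as Type 2 Diabetic), which lack the long signalling form of the leptin receptor in every cell. Marrow of each genotype was grown for 7 to 8 days with either M-CSF at 10 ng/ml, a growth factor for macrophages, or GM-CSF at 20 ng/ml, under which macrophages and dendritic-type cells grow. Each of the 4 groups had 1 library, and the sources used here do not say whether animals were pooled.

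A dying cell exposes phosphatidylserine on its surface, and phagocytes recognise this lipid either directly or through soluble bridging proteins. Gas6 and protein S (the product of Pros1) bind the lipid and activate TAM receptors. MFG-E8 (the product of Mfge8) binds the lipid and an integrin made of the Itgav chain with the Itgb3 or Itgb5 chain. Tim-4 (the product of Timd4) holds the dying cell at the surface of some resident tissue macrophages. In macrophages these routes lead to engulfment and, through the TAM receptors, to a dampened inflammatory response.

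The libraries held 25603406 to 28622657 reads, and levels are given as the authors' normalised reads. The macrophage markers Csf1r (33103.3 to 120627 normalised reads) and Cd68 (11644.7 to 26212.8) were present in all 4 libraries, and Itgax, which encodes CD11c, was at 775.2 (db/+) and 921.0 (db/db) with M-CSF and reached 56041.7 and 56258.8 with GM-CSF. The M-CSF libraries also held transcripts of fibroblast and stromal cells: the summed level of 12 such markers was 27217 in db/+ and 74979 in db/db, against 301 and 335 in the GM-CSF libraries. Of these markers Lum was at 4.3 or less in every library. Lepr was at 6.7 and 21.8 in db/+ and db/db M-CSF and at 49.4 and 60.3 in GM-CSF, a total over the gene that does not check a splice mutation. The GM-CSF libraries of opposite genotype differed little beyond counting: among genes with 200 to 1000 reads their mean squared deviation was 1.09 times the counting variance of read pairs, against 7.04 times between the M-CSF libraries. Whether they are separate cultures was not tested, so culture differences of the chosen clearance genes are given for each genotype apart. The GM-CSF libraries are also taken as 1 sample where that ends the call of a chosen gene. Elsewhere the culture SEs and limma p-values count them as separate samples. Calls of the other pathway and marker genes are not given with these libraries taken as 1 sample. The SE of every tested chosen gene was larger with them taken as 1 sample.

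The first question was how far the culture factor set the level of each gene. In GM-CSF cultures transcripts of Mfge8, Tyro3, Itgb3 and Axl rose, and those of Gas6, Itgav, Pros1 and Itgb5 fell, while Mertk, at 0.906 times its M-CSF level in db/+ and 0.986 times in db/db, did not pass the test. The bridging genes Mfge8 and Gas6 thus moved in opposite directions, and so did the integrin chains Itgb3 and Itgav. In an additive limma model of culture and genotype across 13642 genes, 8 of the 9 tested members passed at an adjusted p under 0.05, 4 in each direction. The model has 1 residual degree of freedom. Its culture SEs and p-values therefore rest mainly on a prior of 12.87 drawn from all genes, and do not measure the spread of each gene. Of all genes tested 57.1% passed, 29.8% higher and 27.3% lower in GM-CSF, so that a call alone sets few genes apart. The members' median absolute log2 fold was 1.30 against 0.46 over all genes, and their median signed log2 fold was -0.08 against 0.02. With the GM-CSF libraries taken as 1 sample, 5009 genes passed in place of 7787. These are RNA levels of whole cultures, in which fewer cells of a type and less RNA per cell cannot be told apart.

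**Figure D1:**
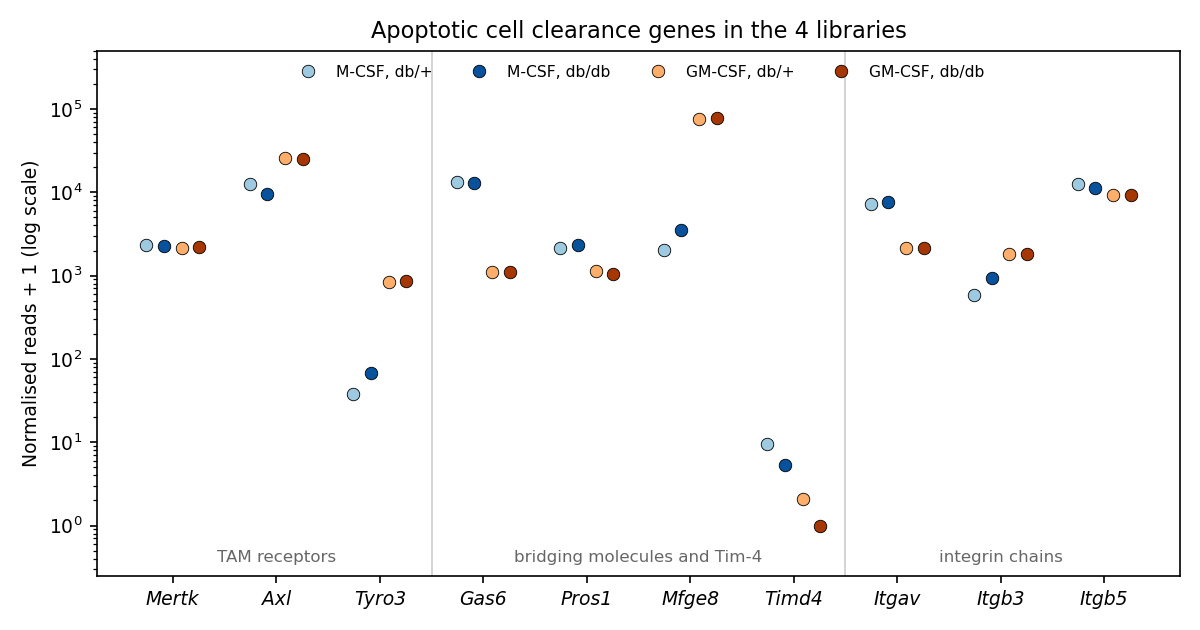
Normalised reads plus 1 (log axis) of the 10 clearance genes, with 1 point for each of the 4 libraries (M-CSF in blue, GM-CSF in orange, db/db darker). Mfge8 and Tyro3 lie far higher and Gas6 far lower in the GM-CSF libraries, Mertk lies between 2123.1 and 2343.6 in all 4, and Timd4 is at 8.6 or less.

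Among the TAM receptors, Mertk, the receptor most tied to engulfment by macrophages, had 2343.6 (db/+) and 2235.9 (db/db) normalised reads with M-CSF, and 2123.1 and 2205.4 with GM-CSF. Both GM-CSF values lay below both M-CSF values by a small margin. The ratio of GM-CSF to M-CSF was 0.906 in db/+ (95% counting interval 0.831 to 0.987) and 0.986 in db/db (0.908 to 1.07), and the culture log2 fold was -0.08 with an SE of 0.09 (limma adjusted p = 0.453). With libraries scaled to their total reads, the median gene shifted by -0.32 and Mertk by -0.42 (limma adjusted p = 0.00118), which is -0.10 relative to the median gene under either scaling.

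Axl, a TAM receptor that Gas6 activates and protein S does not, was at 12492.5 and 9555.2 normalised reads in db/+ and db/db M-CSF and at 25502.4 and 25338.2 in GM-CSF. Both GM-CSF libraries lay above both M-CSF libraries. The level in GM-CSF was 2.04 times that in M-CSF in db/+ (95% counting interval 1.98 to 2.10) and 2.65 times in db/db (2.57 to 2.74). The culture log2 fold was 1.22 with an SE of 0.10 (limma adjusted p = 1.23e-07).

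Tyro3, the TAM receptor best known from the nervous system, had 37.1 (db/+) and 66.2 (db/db) normalised reads with M-CSF, and 840.1 and 870.3 with GM-CSF. It was thus near the level minimum in M-CSF and well above it in GM-CSF. The ratio of GM-CSF to M-CSF was 22.6 in db/+ (14.4 to 37.8) and 13.1 in db/db (9.41 to 18.8), intervals that overlap. The culture log2 fold of 3.97, with an SE of 0.20, ranked at place 160 from the highest of the 13642 genes (limma adjusted p = 4.48e-10).

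Per kilobase of the longest coding transcript, the order of the receptors was Axl, Mertk, Tyro3 in all 4 libraries. In M-CSF Axl was at 2929 (db/+) and 2240 (db/db) normalised reads per kilobase, Mertk at 545 and 519.7, and Tyro3 at 8.32 and 14.8. In GM-CSF Axl was at 5979 and 5941, Mertk at 494 and 513, and Tyro3 at 188 and 195. Tyro3 thus came last in both cultures. The ratio of Tyro3 to Mertk reads was 0.0158 (db/+) and 0.0296 (db/db) in M-CSF, and 0.396 and 0.395 in GM-CSF. The lengths come from GENCODE M21, a build other than those the submitters' notes name, and the authors' gene models are not given. The values per kilobase therefore serve for order only.

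Of the bridging molecules, Mfge8 had the largest culture difference of all members. It was at 2018.3 and 3495.0 normalised reads in db/+ and db/db M-CSF and at 75594.1 and 77124.9 in GM-CSF. The groups were far apart, and the M-CSF libraries differed from each other more than the GM-CSF libraries did. The ratio of GM-CSF to M-CSF was 37.5 in db/+ (35.2 to 39.9) and 22.1 in db/db (21.1 to 23.1), intervals that do not overlap. The difference between the genotypes in this ratio could not be tested over samples, since each group had 1 library. The culture log2 fold was 4.84 with an SE of 0.13 (limma adjusted p = 5.84e-13), place 89 from the highest of the 13642 genes.

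Gas6, the ligand of all TAM receptors, had 13320.9 (db/+) and 12807.0 (db/db) normalised reads with M-CSF, and 1094.7 and 1111.3 with GM-CSF. Genotype made little difference to either level. Gas6 was 12.2 times higher in M-CSF in db/+ (11.1 to 13.4) and 11.5 times higher in db/db (10.5 to 12.6). Its culture log2 fold was -3.56 with an SE of 0.08 (limma adjusted p = 8.70e-14), place 405 from the lowest of all genes tested.

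Pros1, which encodes protein S, a plasma anticoagulant that also activates Mertk and Tyro3, was at 2165.8 and 2322.1 in M-CSF and at 1121.6 and 1038.1 in GM-CSF, in db/+ and db/db. Its log2 fold was -1.05 with an SE of 0.10 (limma adjusted p = 2.68e-07). The M-CSF level was 1.93 times the GM-CSF level in db/+ (1.74 to 2.15) and 2.24 times in db/db (2.01 to 2.49), a smaller fall than that of Gas6. Per kilobase the order of the bridging genes was Gas6, Mfge8, Pros1 in both M-CSF libraries (5228, 950 and 656 normalised reads per kilobase in db/+). It was Mfge8, Gas6, Pros1 in both GM-CSF libraries (35574, 430 and 340 in db/+). The uncertain lengths leave the place of Pros1 unsettled in db/+. Without them Pros1 lay above Mfge8 in db/+ M-CSF (2165.8 against 2018.3) and above Gas6 in db/+ GM-CSF (1121.6 against 1094.7).

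Timd4 was at 8.6 and 4.3 normalised reads in db/+ and db/db M-CSF and at 1.1 and 0.0 in GM-CSF, from 9, 5, 1 and 0 reads. Only the db/+ M-CSF value exceeded the floor of 3 read pairs, which is 5.71 normalised reads in that library, so no comparison between the libraries could be made at this depth. The gene was left out of the tests for its low level.

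The integrin chains did not move as a block. Itgav, the alpha chain that pairs with both beta chains named here, was at 7134.6 and 7585.1 in M-CSF and at 2152.3 and 2132.2 in GM-CSF, in db/+ and db/db. Its level in M-CSF was 3.31 times that in GM-CSF in db/+ (3.09 to 3.56) and 3.56 times in db/db (3.32 to 3.82), and its log2 fold was -1.78 with an SE of 0.08 (limma adjusted p = 1.58e-10). Itgb3, the beta chain shared with the platelet fibrinogen receptor and with osteoclasts, was at 585.9 and 929.7 in M-CSF and at 1809.1 and 1833.2 in GM-CSF. All GM-CSF values lay above all M-CSF values, and the ratio was 3.09 in db/+ (2.70 to 3.53) and 1.97 in db/db (1.77 to 2.20), with a log2 fold of 1.30 and an SE of 0.13 (limma adjusted p = 7.80e-07). Itgb5, the other beta chain of vitronectin-type integrins, was at 12407.8 and 11283.0 in M-CSF and at 9251.9 and 9234.6 in GM-CSF. Its log2 fold of -0.36, with an SE of 0.09, passed (limma adjusted p = 0.00281), but not with the GM-CSF libraries taken as 1 sample (limma adjusted p = 0.0767) or without a variance trend (limma adjusted p = 0.0868).

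Per kilobase Itgb5 was the most abundant of the integrin chains in every library, at 3781 and 3438 in db/+ and db/db M-CSF and at 2819 and 2814 in GM-CSF. Itgav stood at 1011 and 1075 normalised reads per kilobase in M-CSF and at 305 and 302 in GM-CSF. Itgb3 stood at 101 and 161 in M-CSF and at 313 and 317 in GM-CSF, where the uncertain lengths leave its order with Itgav unsettled. Of the other beta chains that pair with Itgav, Itgb1 was abundant in all libraries (18753.9 to 28461.1 normalised reads) and rose in GM-CSF with a log2 fold of 0.45 (limma adjusted p = 0.00185), while Itgb6 and Itgb8 stayed under the level minimum.

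**Figure D2:**
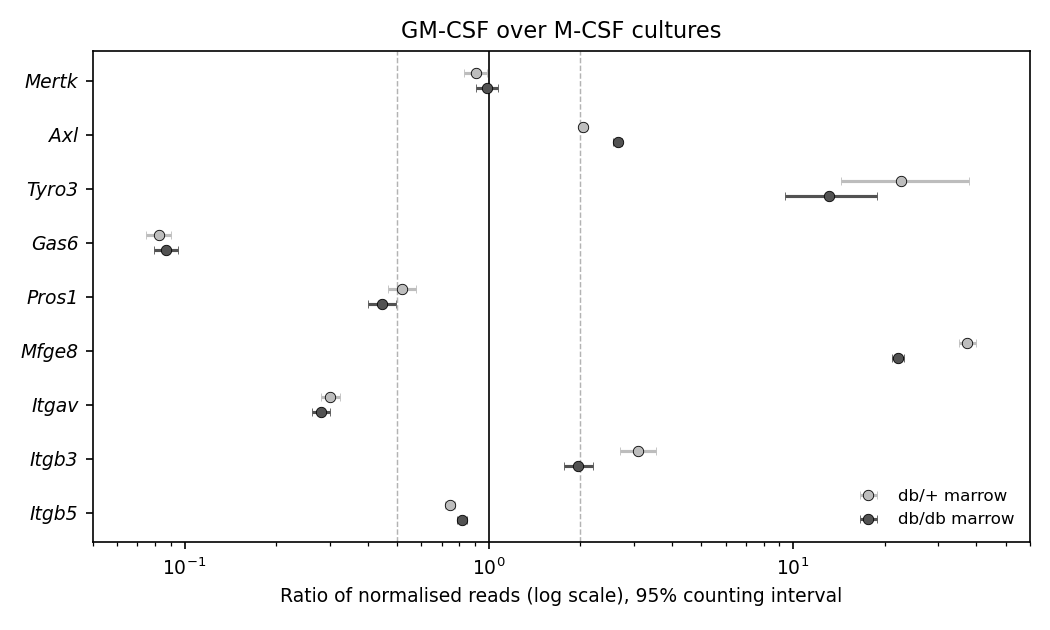
Ratio of normalised reads in GM-CSF over M-CSF cultures (log axis) for the 9 members that reached the level minimum, in db/+ (light) and db/db marrow (dark), with 95% counting intervals; dashed lines mark 2-fold. Mfge8 (37.5 and 22.1) and Tyro3 (22.6 and 13.1) lie farthest right, Gas6 farthest left, and Mertk near 1.

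Counted by size, 4 members (Axl, Tyro3, Mfge8, Itgb3) were at least 2-fold higher on log2(normalised reads + 5) in GM-CSF than in M-CSF in db/+ marrow, and 2 (Gas6, Itgav) at least 2-fold lower. Among all 13642 genes 27.6% were that far apart, 12% higher and 15.7% lower. In db/db marrow 3 were higher (Axl, Tyro3, Mfge8) and 3 lower (Gas6, Pros1, Itgav), against 27.1% of all genes, 11.3% higher and 15.8% lower. Values close to the threshold, a log2 fold of 1 in size, were those of Axl (1.03) and Pros1 (-0.95) in db/+ and of Itgb3 (0.98) in db/db. With libraries scaled to their total reads, Axl in db/+ came to 0.70, under the threshold, and Pros1 in db/+ to -1.27, past it, which made 3 higher and 3 lower there. In db/db Axl then came to 1.05 and Itgb3 to 0.62, and the counts stayed at 3 and 3.

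Ratios between members within a library do not depend on the scaling, and their change between libraries does not depend on gene length. The ratio of Gas6 to Axl reads was 1.07 (db/+) and 1.34 (db/db) with M-CSF but 0.0429 and 0.0439 with GM-CSF, a fall by a factor of 24.8 in db/+ and 30.6 in db/db. The ratio of Mfge8 to Itgav went the other way, from 0.283 and 0.461 to 35.1 and 36.2, a factor of 124 and 78.5. The beta chain balance, Itgb3 to Itgb5, was 0.0472 and 0.0824 in M-CSF and 0.196 and 0.199 in GM-CSF. Axl to Mertk rose 2.25-fold in db/+ and 2.69-fold in db/db. Each of these ratios was nearly equal in both GM-CSF libraries and less so in the M-CSF libraries. Other pairs drawn did not all share this. From db/+ to db/db, Gas6 to Mertk changed by a factor of 1.01 in M-CSF and 0.977 in GM-CSF. Pros1 to Mertk changed by 1.12 and 0.891, and Gas6 to Pros1 by 0.897 and 1.10. Tyro3 to Mertk did share it, at 1.87 and 0.997.

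**Figure D3:**
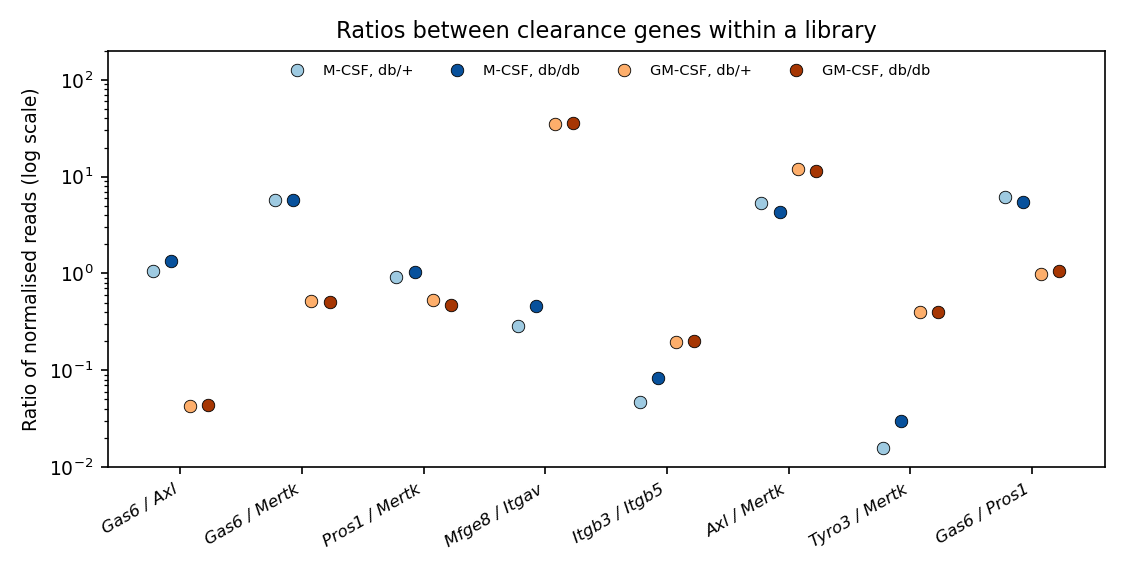
Ratio of the normalised reads of 2 members within each library (log axis), with 1 point per library. Gas6 relative to Axl falls from above 1 in M-CSF to 0.0429 and 0.0439 in GM-CSF, and Mfge8 relative to Itgav rises from below 1 to 35.1 and 36.2.

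Sequence upstream of the start is shown for the members with the largest rise (Mfge8, Tyro3) and the largest fall (Gas6) and for the most abundant TAM receptor (Axl), to set their promoters side by side. Each line gives the 250 bases before the RefSeq start on GRCm38.p6, 5′ to 3′ on the gene's strand, with GC boxes (GGGCGG on either strand, bound by Sp1-type factors) in capitals. The windows are chr7:79149061-79149310 on the minus strand for Mfge8, chr2:119799264-119799513 on the plus strand for Tyro3, chr7:25788734-25788983 on the minus strand for Axl, and chr8:13494536-13494785 on the minus strand for Gas6.
Mfge8: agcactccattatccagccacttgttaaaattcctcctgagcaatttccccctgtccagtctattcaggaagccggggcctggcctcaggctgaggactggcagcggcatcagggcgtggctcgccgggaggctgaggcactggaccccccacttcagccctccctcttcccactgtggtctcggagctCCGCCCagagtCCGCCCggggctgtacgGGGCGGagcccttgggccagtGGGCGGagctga
Tyro3: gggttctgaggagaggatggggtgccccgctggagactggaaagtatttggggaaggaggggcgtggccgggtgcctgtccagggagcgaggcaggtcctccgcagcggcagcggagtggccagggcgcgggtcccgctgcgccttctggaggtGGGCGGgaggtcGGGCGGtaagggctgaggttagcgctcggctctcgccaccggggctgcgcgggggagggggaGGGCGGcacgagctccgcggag
Axl: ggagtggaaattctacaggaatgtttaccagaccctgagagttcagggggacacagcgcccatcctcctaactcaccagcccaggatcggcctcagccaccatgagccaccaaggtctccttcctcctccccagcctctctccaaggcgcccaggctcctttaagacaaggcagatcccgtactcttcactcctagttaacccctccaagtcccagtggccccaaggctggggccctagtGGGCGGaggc
Gas6: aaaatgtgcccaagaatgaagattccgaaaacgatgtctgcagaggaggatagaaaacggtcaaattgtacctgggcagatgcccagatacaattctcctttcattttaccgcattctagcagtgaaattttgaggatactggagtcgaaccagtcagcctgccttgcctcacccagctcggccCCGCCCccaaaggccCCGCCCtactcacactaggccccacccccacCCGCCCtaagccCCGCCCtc

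Mfge8 and Gas6, which moved in opposite directions between the cultures, each had 4 GC boxes in this window, Tyro3 had 3 and Axl had 1. A window was at hand for 9 of the 10 members, and 7 of these held a GC box, against 32.7% of all 32851 RefSeq windows of this length. The GC content of the shown windows was 65.2% for Mfge8, 73.2% for Tyro3, 60% for Axl and 54.8% for Gas6, beside a median of 52.4% over all windows. In the other windows it was 65.2% for Itgb5, 64.4% for Itgav and for Pros1, 63.6% for Mertk and 50% for Timd4. The share of windows with a GC box was not compared at like GC content. Neither an AP-1 site (TGANTCA, in 6.75% of all windows) nor an E-box (CACGTG, in 6.02%) was found in any of the 9. A CCAAT box (CCAAT, in 33.8% of all windows) was found in Timd4 alone. A STAT-type site (TTCNNNGAA, in 7.02% of all windows) was found in Pros1 alone, beginning 92 bases before the start, and an ETS site of the PU.1 type (GAGGAAGT, in 2.44%) in Itgav alone, beginning 9 bases before it. The nearest transcript start in GENCODE M21 is the same as the RefSeq start for Mfge8 and Tyro3, and lies 28 bases further downstream for Axl and 45 for Gas6, all on the same strand. In the Tyro3 window 39 and 89 bases are annotated there as exons of a pair of noncoding Tyro3 transcripts. All motifs were searched on both strands, and a pair of the 5 GC boxes in Pros1 overlap each other.

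The next question was how diabetic marrow differed from control marrow in M-CSF, where the libraries differed most. Mfge8, Itgb3 and Tyro3 were higher in db/db and Axl was lower, while Mertk, Gas6, Pros1, Itgav and Itgb5 lay at 0.909 to 1.07 times their control level. None of the 9 members was 2-fold apart, against 5.83% of all genes (5.05% higher and 0.777% lower in db/db), and no replicate check exists for any of them. Their median absolute log2 fold was 0.14, beside 0.17 over all genes.

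Mfge8 stood at 2018.3 in db/+ and at 3495.0 in db/db, 1.73 times as high (95% counting interval 1.61 to 1.87). Of the 10175 genes with at least 200 normalised reads in a library, 3.93% had a higher log2 fold than its 0.79. Itgb3 was at 929.7 against 585.9, or 1.59 times as high (1.38 to 1.83), with 4.79% of genes above it. Tyro3 was at 66.2 against 37.1, or 1.79 times as high, but from 76 and 39 reads and with an interval of 1.01 to 3.26. Axl went the other way, at 9555.2 in db/db against 12492.5 in db/+, or 0.765 times the control level (0.738 to 0.793), and 2.99% of genes had a lower fold than it. The Axl, Mfge8 and Itgb3 ratios exceeded counting error by a wide margin, and the Tyro3 ratio by little. The interval excluded 1 for 7 of the 9 members, also for Itgb5 (0.878 to 0.941), Itgav (1.02 to 1.11) and Gas6 (0.930 to 0.994). Between these libraries genes with 200 to 1000 reads deviated by 7.04 times the counting variance, so such an interval does not set a member apart from other genes.

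Among the marker lists of other cells, the stromal list differed most between the M-CSF libraries. Of the 11 fibroblast and stromal markers above the level minimum, 10 exceeded their db/+ level by 2-fold or more in M-CSF, with ratios of 2.47 to 3.08, above the 1.73 of Mfge8 and the 1.59 of Itgb3. Among megakaryocyte and platelet markers, Itga2b, the alpha chain that pairs with Itgb3 in platelets, had 236.8 in db/+ and 448.7 in db/db, while Pf4 was at 8934.8 against 8475.7, and 0 of the 7 markers were 2-fold apart; their sum was 10166 against 9282. Of the osteoclast markers, Ctsk was at 411.3 against 179.8 and Acp5 at 319.8 against 404.2, and Calcr was at 0 in every library. The part of such cells in the Mfge8, Itgb3, Tyro3 and Axl differences was not tested.

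With GM-CSF the members' levels were close in the genotypes. The ratios of db/db to db/+ lay between 0.926 (Pros1, interval 0.815 to 1.05) and 1.04 (Mertk, 0.950 to 1.14). The interval excluded 1 for Mfge8 alone, at 1.02 (1.01 to 1.04). Axl stood at 0.994 (0.968 to 1.02) and Itgb3 at 1.01 (0.919 to 1.12), against 0.765 and 1.59 in M-CSF. None of the 9 members was 2-fold apart, where 1.06% of all genes were (0.586% higher and 0.476% lower).

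**Figure D4:**
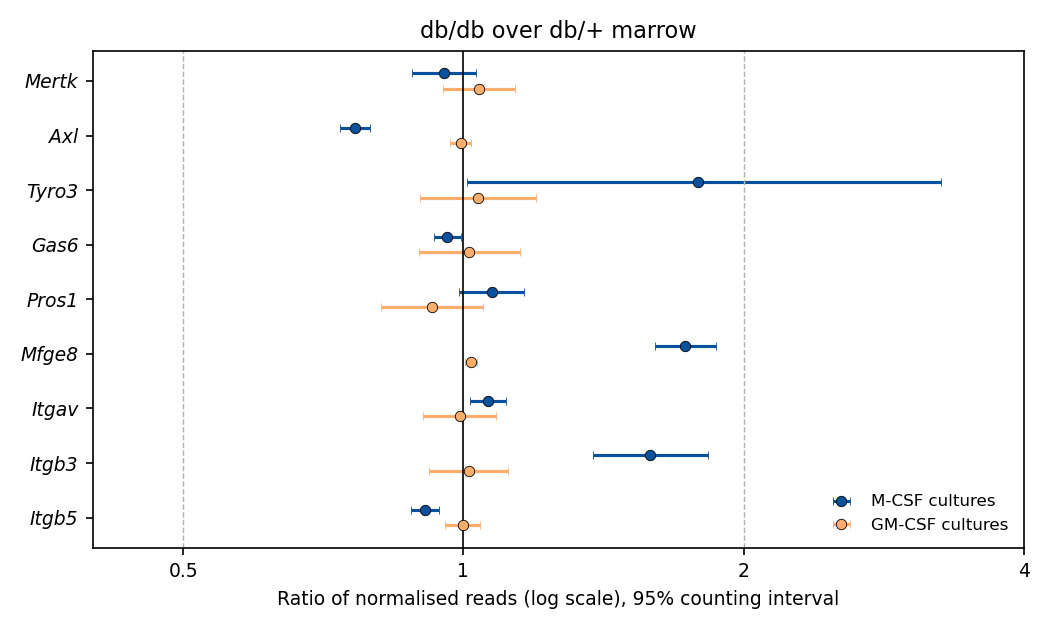
Ratio of normalised reads in db/db over db/+ marrow (log axis) in M-CSF (blue) and GM-CSF cultures (orange), with 95% counting intervals; dashed lines mark 2-fold. In M-CSF Axl lies at 0.765 and Mfge8, Itgb3 and Tyro3 at 1.59 to 1.79, and in GM-CSF all 9 genes lie between 0.926 and 1.04.

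Pooled over both cultures in the additive limma model, none of the 9 members passed for genotype. Mfge8 was nearest, with a log2 fold of 0.41 and an SE of 0.13 (unadjusted p = 0.00898, limma adjusted p = 0.888), followed by Itgb3 with 0.34 and an SE of 0.13 (unadjusted p = 0.0208, limma adjusted p = 0.9996). Both were below 0.05 before adjustment, the only 2 of the 9 that were. The log2 fold of Mfge8 was 0.79 in M-CSF and 0.03 in GM-CSF, and that of Itgb3 0.66 and 0.02, so the pooled folds hold in neither culture. Within a gene the only spread in this model is that difference between the cultures, with 1 residual degree of freedom. The SEs and p-values rest mainly on the prior of 12.87 drawn from all genes and do not measure the spread of these genes. The gene that did pass, 1 of 13642 (0.00733%), was the stromal marker Sparc. Before adjustment limma had 603 genes with p under 0.05, and edgeR's quasi-likelihood test on the recovered reads passed 152 genes after adjustment, none of them members (edgeR adjusted p = 0.318 for Mfge8). No interaction between genotype and culture could be tested.

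Other genes of the clearance pathway came from 8 lists with 72 genes, of which 66 reached the level minimum. In GM-CSF 24 rose, 27 fell and 15 did not pass, or 36.4% higher and 40.9% lower against 29.8% and 27.3% of all genes. Their median culture log2 fold was 0.01, beside 0.02 over all genes. None passed for genotype. With M-CSF, 5 of the 66 were 2-fold or more higher in db/db (Edil3, Thbs1, Bcar1, Gulp1 and Siglecg) and 0 lower, against 5.05% and 0.777% of all genes.

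Among 13 further engulfment receptors, 3 rose and 8 fell, with a median log2 fold of -0.52. Stab1, the scavenger receptor stabilin that binds phosphatidylserine, was at 75415.3 and 60824.3 normalised reads in db/+ and db/db M-CSF and at 1215.8 and 1429.7 in GM-CSF (log2 fold -5.68, SE 0.11, limma adjusted p = 1.49e-14). Its relative Stab2 was at 376.7 and 318.0 and at 12.3 and 23.7 in the same order. Havcr1, which encodes the Tim-4 relative Tim-1, fell from 29.5 and 45.3 to 1.1 and 4.3. Cd300lf, a lipid-binding receptor of the CD300 family, was the main exception, with 233.0 and 169.0 in M-CSF and 13447.7 and 13692.7 in GM-CSF (log2 fold 6.06, SE 0.11, limma adjusted p = 9.01e-15). The receptors thus did not shift in 1 direction.

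Among the other bridging molecules and opsonins, 3 rose and 5 fell. The chains of complement C1q, which coats dying cells, fell together: C1qa from 22536.7 and 24314.0 to 2980.0 and 2913.3 (log2 fold -2.99). On the log2 scale C1qc fell by 2.61 and C1qb fell by 2.39. Anxa1, a lipid-binding protein exposed on dying cells, rose from 4187.9 and 5642.8 to 31505.0 and 32650.4 (log2 fold 2.72). Edil3, a secreted relative of MFG-E8 with an integrin-binding motif, had 107.5 in db/+ and 257.9 in db/db with M-CSF, 2.40 times as high (1.75 to 3.32), and 107.7 and 88.2 with GM-CSF. Thbs1, which encodes thrombospondin and bridges dying cells to Cd36 and Itgav, had 10664.4 in db/+ and 22987.0 in db/db with M-CSF, and 5114.4 and 4635.6 with GM-CSF. Edil3 and Thbs1 were the only 2 of the 8 genes in this list that were 2-fold apart by genotype in M-CSF. Stromal markers were higher in the same library, and a link between these differences was not tested.

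Of 12 engulfment signalling genes, 2 rose and 7 fell. The adaptor Bcar1, also called p130Cas, was at 158.8 and 377.3 in M-CSF and at 4.5 and 6.5 in GM-CSF (log2 fold -4.58), and Gulp1, an adaptor of engulfment receptors, at 14.3 and 47.9 against 0.0 and 0.0. With M-CSF both exceeded their db/+ level more than 2-fold in db/db, at ratios of 2.38 and 3.36. Elmo1, part of the module that activates Rac1, fell by 1.12 on the log2 scale (3840.8 and 3851.3 to 1712.7 and 1833.2), while Rac1 itself was at 8632.8 to 10249.6 in all 4 libraries (limma adjusted p = 0.0858).

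Of 10 genes for the digestion of engulfed cells, 5 rose and 2 fell. Dnase2a, the lysosomal nuclease that degrades the DNA of engulfed cells, was at 3223.5 and 2998.3 in M-CSF and at 6232.6 and 6396.7 in GM-CSF (log2 fold 1.02), Rab7, a small GTPase of late phagosomes, rose by a log2 fold of 0.89 and the autophagy gene Atg5 by 0.81. The gene listed as 1700021K19Rik, also called Rubcn, fell by 0.90 on the log2 scale.

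Of 9 nuclear receptor and lipid efflux genes, 4 rose and 1 fell. Abcg1, a cholesterol exporter, was at 5115.3 and 4524.0 in M-CSF and at 27241.9 and 27318.8 in GM-CSF (log2 fold 2.502), and Abca1, the other main exporter, at 22772.6 and 22858.9 against 11848.3 and 11553.0 (log2 fold -0.96). The lipid-sensing receptor Pparg rose by a log2 fold of 0.87 and Ppard by 0.41. The exporters thus moved in opposite directions.

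Among the 5 receptors for find-me signals that draw phagocytes to dying cells, 3 fell and 2 rose. The fractalkine receptor Cx3cr1 was at 6300.5 and 5060.8 in M-CSF and at 52.7 and 37.7 in GM-CSF (log2 fold -6.83, SE 0.13, limma adjusted p = 9.78e-15). The nucleotide receptor P2ry12 fell by 4.43 and the sphingosine phosphate receptor S1pr1 fell by 2.23 on the log2 scale, while P2ry2, a receptor for ATP and UTP, rose by a log2 fold of 1.24. Of 8 brakes and sheddases, 4 rose and 1 fell: Cd24a, a don't-eat-me ligand, was at 293.9 and 355.5 in M-CSF and at 5656.1 and 5865.2 in GM-CSF (log2 fold 4.13), and Socs3, Socs1 and Adam17, the protease that sheds Mertk from the surface, rose by log2 folds of 1.14, 0.97 and 0.47. Siglecg, a receptor for Cd24a, had 26.6 in db/+ and 74.9 in db/db with M-CSF, and 57.2 and 34.4 with GM-CSF.

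**Figure D5:**
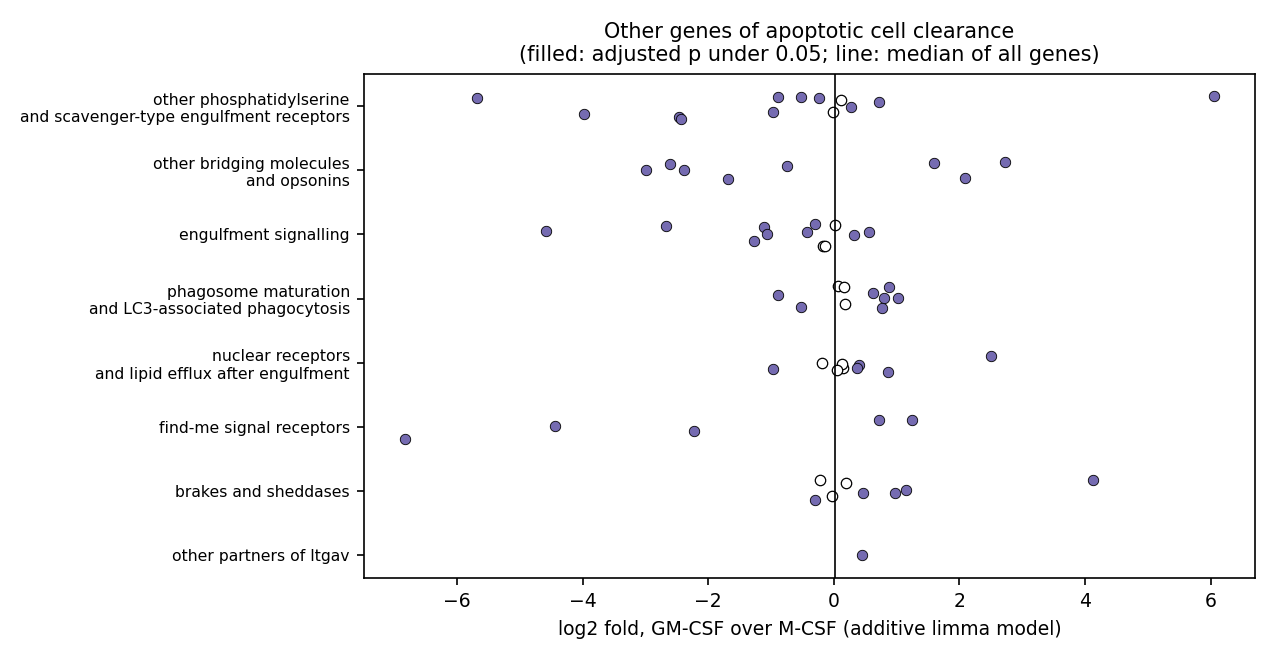
Culture log2 folds (GM-CSF over M-CSF, additive limma model) of the 66 other clearance genes that reached the level minimum, 1 point per gene, grouped by list; filled points passed at an adjusted p under 0.05 and the line marks the median of all genes, 0.02. Stab1 (-5.68) and Cd300lf (6.06) are the ends of the receptor list, and Cx3cr1 (-6.83) is the lowest gene shown.

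The marker lists of other cells differed between the cultures beside these results. In GM-CSF the summed level of the 7 osteoclast markers was 62227 and 63891 in db/+ and db/db, against 2897 and 3268 in M-CSF, with 5 of the 6 genes above the level minimum higher and Calcr at 0 in every library. Of the M-CSF macrophage list 7 of 8 genes fell in GM-CSF and Cd68 rose. Of the list for GM-CSF cultures and dendritic cells 6 of 8 rose and Dpp4 did not pass. Flt3 in that list fell, from 53.3 and 76.7 in db/+ and db/db M-CSF to 0.0 and 0.0 in GM-CSF. All 11 tested stromal markers and all 8 neutrophil markers were lower in GM-CSF. Of the 7 endothelial markers, Vwf (8577.8 normalised reads in db/+ GM-CSF), Kdr (2105.2) and Cdh5 (201.9) rose in GM-CSF and Pecam1 fell. Tek, Tie1 and Emcn were under the level minimum in all 4 libraries, and the summed level of the list was 987 and 1061 in M-CSF and 10974 and 10644 in GM-CSF. Which cells held the Mfge8, Tyro3, Itgb3 or Gas6 transcripts was not tested.

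For each TAM receptor the genes nearest in profile were found over the 4 libraries, among 10175 genes with at least 200 normalised reads in a library, by Euclidean distance of log2 levels centred on each gene's mean. Nearest to Axl were Coro2a (distance 0.0202), Tcirg1 (0.0354) and Lilra6 (0.0559). Nearest to Tyro3 were Fabp4 (0.0799), Clec9a (0.0983) and Cd200 (0.187), each far lower with M-CSF than with GM-CSF and, with M-CSF, higher in db/db. Fabp4, a fatty acid binding protein, was at 422.3 and 687.5 with M-CSF in db/+ and db/db, and at 8827.9 and 8626.8 in GM-CSF, and Clec9a, a dendritic cell receptor for dead cells, at 24.7 and 48.8 and at 640.4 and 667.0. Nearest to Mertk, whose profile is nearly flat, were Ehmt1 (0.0136), 4921524J17Rik (0.0145) and Atxn1 (0.0188). With 4 libraries many genes share a profile, and these are descriptions only.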

How the data were processed

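The authors deposited 1 table per library holding a normalised signal, that is gene read counts divided by a size factor and rounded to 1 decimal, TMM factors by the name of the files. The submitters' processing notes list TopHat 1.2.0, edgeR and the genome builds mm8 and mm9, with nothing on which build served which step. No source used here gives the counting tool, annotation, filters or use of strand, and reads of a gene and of one that overlaps it on either strand cannot be told apart. Rows with a repeated symbol (78 rows, 38 symbols) stayed in the tests. Columns left unused numbered 0.

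Whole reads were recovered from the step of 1 read (0.951, 0.871, 1.12 and 1.08 for db/+ and db/db M-CSF, then db/+ and db/db GM-CSF). With a tolerance of 0.1 reads, 100% of low values and 98.5% to 99.8% of all values came out whole. Depth was 25603406, 27590816, 27216014 and 28622657 reads. Even counts were commoner than odd ones (52.6% to 56.3% of counts from 1 to 20), so mates appear to have been counted separately, at least in part, and intervals were taken on read pairs. These are exact conditional binomial 95% intervals. They and the floor of 3 read pairs cover counting error only, since PCR reads are not independent molecules.

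Genes with at least 20 normalised reads in 1 library were kept (13642). The values are normalised, so limma 3.58.1 (R 4.3.3; lmFit, eBayes with a variance trend) on log2(value + 5) with culture and genotype terms was the main test, with 1 residual degree of freedom and a prior of 12.87. P-values are two-sided, with Benjamini-Hochberg adjustment over all genes kept and a threshold of 0.05. Between single libraries no test was made, and a difference of at least 2-fold on that log2 scale, which understates low genes, was counted. edgeR 4.0.16 on recovered reads was an alternative, with 7847 genes passing for culture. The fit was also run on simulated counts with the same spread in every library. Since the M-CSF and GM-CSF pairs differ in spread here, that run cannot show how well the fit suits these libraries. Other alternatives were pseudocounts of 1 and 20, no level minimum or one of 200, scaling to the library total (recovered reads scaled to a common total), no variance trend, and fits without the other term or with the GM-CSF libraries averaged.

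The members and gene lists were chosen with earlier results of these data known. All 10 members are named. From each pathway list the text names up to 4 genes with the largest culture fold among those past the threshold and up to 2 with the largest genotype fold in M-CSF of at least 2-fold, and for each TAM receptor the 3 genes nearest in profile. Of these, 1 gene in the engulfment signalling list is not reported here. Rac1, Itgb6 and Itgb8 are named beyond this rule, after their values were seen. Marker lists covered M-CSF macrophages, GM-CSF cultures, and fibroblast, endothelial, megakaryocyte, osteoclast, neutrophil, red cell, lymphoid (B cell; T and NK cell) and mast cell and eosinophil genes. Summed levels of the erythroid, B cell, T and NK cell, and mast cell and eosinophil lists were at most 330, 259, 95.8 and 2621 normalised reads in any library. Promoters are from RefSeq on GRCm38.p6.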

Additional observations from a re-analysis of the deposited data

How the results depend on the processing

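For culture, 7787 genes passed in the additive limma model, 5009 with the GM-CSF libraries averaged as 1 sample and 0 with no level minimum, where 8129 genes still had an unadjusted limma p under 0.05; the cause of the latter was not tested. With libraries scaled to their total, 26.4% of culture calls were higher in GM-CSF against 52.2%. For genotype, 1 gene passed, and 2 with a pseudocount of 1, 3 with a level minimum of 200, 152 with edgeR on recovered reads, and 0 with a pseudocount of 20, no level minimum, scaling to the library total, no variance trend or no culture term (629, 795, 534, 617 and 1 at an unadjusted limma p under 0.05, in that order). Of all genes, 3771 in db/+ and 3702 in db/db were at least 2-fold apart between cultures, or 2318 and 2225 at a level minimum of 200. By genotype, 795 were in M-CSF (471 with a pseudocount of 20, 1366 with no level minimum and 334 with a minimum of 200) and 145 in GM-CSF (560 and 1 with pseudocounts of 1 and 20, 316 with no minimum and 13 with 200).

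Among the members, no alternative run reversed a called direction. Over 9 alternatives the culture log2 fold of Mfge8 ranged from 4.502 to 4.84, Tyro3 from 3.64 to 4.08, Gas6 from -3.90 to -3.54, Itgav from -2.12 to -1.77, Pros1 from -1.39 to -1.04, Axl from 0.88 to 1.22 and Itgb3 from 0.96 to 1.30, and each of these passed in all but the fit with no level minimum, where their adjusted p was 0.0628 to 0.121. Itgb5 passed in 6 of the 9 and Mertk in 1. For genotype no member passed under any alternative. No paired analysis was possible because each group had 1 library, so that no replicate numbers could serve as a block; the additive model compares cultures within genotype. With 1 library a group, leaving out a library left no residual degrees of freedom in the additive model. Counting depth limits Tyro3 in M-CSF (39 and 76 reads) and Timd4 in all libraries.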
